A study of Mus musculus with 11 samples.

Results

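Genes of purinergic and adenosine signalling were compared across astrocytes of 4 mouse brain regions, the brainstem (BS), cortex (CX), hippocampus (HC) and olfactory bulb (OB). The 10 genes, of 24421 entries in the data, were taken by name. They are the nucleotide receptors P2ry1, P2ry2, P2ry14 and P2rx7, the adenosine receptors Adora1, Adora2a and Adora2b, the ecto-enzymes Entpd2 and Nt5e, and the adenosine kinase Adk. RNA was sequenced from eGFP-positive cells sorted from Aldh1l1-eGFP mice, a transgenic line in which an Aldh1l1 bacterial artificial chromosome drives eGFP in astrocytes at large. All mice were 16 weeks old and on the C57BL/6 background, animals of both sexes were used in the study, no region received a treatment, and the groups were defined by the region dissected. The paper does not give the sex or the processing batch of each sample. There were 3 OB, 3 HC, 2 CX and 3 BS samples. The sources do not say whether samples of a region came from separate animals, so p-values measure only the spread between these samples.

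ATP released by neurons and glia acts on ionotropic P2X and G protein-coupled P2Y receptors, and ecto-nucleotidases at the cell surface break it down through ADP and AMP to adenosine. Adenosine acts on its own G protein-coupled receptors, of which A1 lowers cyclic AMP and the A2 receptors raise it. Adenosine kinase, an enzyme that in the adult brain is found mainly in astrocytes, removes adenosine by turning it back into AMP. In astrocytes, P2Y1 is known for the calcium signals it sets off through Gq, phospholipase C and the IP3 receptors.

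The genes with a difference among regions were P2ry1, Adora1 and Adk, and their upstream sequences are shown for this reason. Each window holds the 250 bases before the start of a RefSeq transcript, 5′ to 3′ on the strand of the gene, in the build GRCm38.p6. Capitals mark GGGCGG or its reverse complement CCGCCC, the letters of a GC box, and TTGGC or its reverse complement GCCAA, the half-site letters of nuclear factor I. The windows are chr3:61002535-61002784 on the plus strand for P2ry1, chr1:134235458-134235707 on the minus strand for Adora1 and chr14:21052324-21052573 on the plus strand for Adk.
P2ry1: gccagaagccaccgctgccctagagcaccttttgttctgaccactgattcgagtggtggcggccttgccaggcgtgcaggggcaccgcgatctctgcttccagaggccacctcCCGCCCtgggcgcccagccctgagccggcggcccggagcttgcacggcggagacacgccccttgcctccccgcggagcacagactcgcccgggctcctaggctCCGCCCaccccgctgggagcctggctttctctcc
Adora1: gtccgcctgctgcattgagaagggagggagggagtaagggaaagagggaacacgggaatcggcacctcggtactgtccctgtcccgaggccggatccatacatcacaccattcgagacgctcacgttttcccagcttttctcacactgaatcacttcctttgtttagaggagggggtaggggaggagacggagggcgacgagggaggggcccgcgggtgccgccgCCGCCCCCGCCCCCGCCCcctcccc
Adk: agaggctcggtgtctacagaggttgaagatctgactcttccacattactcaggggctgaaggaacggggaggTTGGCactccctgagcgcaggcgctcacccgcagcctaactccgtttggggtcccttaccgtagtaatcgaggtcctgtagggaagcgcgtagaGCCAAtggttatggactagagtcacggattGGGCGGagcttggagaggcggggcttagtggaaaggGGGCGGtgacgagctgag

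The P2ry1 window held 2 GC-box matches and 20 CG dinucleotides, and that of Adora1 held 3 GC-box matches in an unbroken run ending near the start and 19 CG dinucleotides. The Adk window held 2 GC-box matches, 2 nuclear factor I half-sites and 15 CG dinucleotides. Half-site letters were found in neither the P2ry1 nor the Adora1 window, which says only that these letters are not in those 250 bases. Over the 32851 windows of the same length, 32.7% held the GC-box letters, 41.5% held the half-site letters and the median number of CG dinucleotides was 6. A window was given for 9 of the 10 genes, the exception being Adora2a. Among genes not called, GC-box letters were also in the windows of P2ry2, P2rx7, Adora2b, Entpd2 and Nt5e. Half-site letters were in those of P2ry14, Adora2b and Entpd2. CG dinucleotides numbered 22 in Adora2b, 21 in P2ry2 and in Nt5e, 9 in Entpd2, 6 in P2rx7 and 4 in P2ry14. These letters were thus not particular to the called genes. A match is a description of letters and not of a bound site.

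The value of a gene is its read count divided by a size factor of the library, in units close to reads. Libraries held 2830746 to 14151670 reads on genes, with a median of 5552215, so that 1 read was worth 0.367 to 2.10 and the floor of 3 reads corresponded to 1.10 to 6.31. These limits cover counting error only. Slc1a2, an astrocyte glutamate transporter, lay between 61764 and 541892 in every library, and all 7 astrocyte markers were above the floor in each region, with a summed value of 78363 to 244807 in BS and 525148 to 596663 in CX. Markers of other cells were present too. The oligodendrocyte sum of 6 genes was 51314 to 88198 in BS against 9464 to 15669 in OB, and the choroid plexus sum of 5 genes was 49748 to 234198 in BS, 69221 to 140589 in HC and 34.7 to 46.9 in OB, where Folr1 was at 0. The ribosomal RNA precursor Rn45s took 0.966% to 2.93% of the reads in OB and HC libraries and 18.0% to 25.6% in CX and BS libraries. Their part in the differences between regions was not tested, and fewer cells of a type cannot be told apart from less RNA per cell in such bulk samples.

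Moderated F tests of limma on log2(value + 1), with p-values adjusted over all genes tested, called 3 of the 10 genes, against 16.5% of the 13875 genes tested. All 10 passed the filter on low counts. The median range between the highest and the lowest region mean on the log2 scale was 1.24 for the 10 genes and 0.84 for all genes tested. The former lies between the ranges of Entpd2 (1.10) and of P2ry2 and P2ry14 (both 1.38), all uncalled. P2ry2 and P2ry14 had 81 and 182 reads, and the range of such sparse genes includes counting noise. P2ry1 was higher in OB and BS than in HC and CX, Adora1 was higher in OB than in HC, and the region means of Adk had the reverse of the P2ry1 order, with CX highest and BS lowest.

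**Figure D1:**
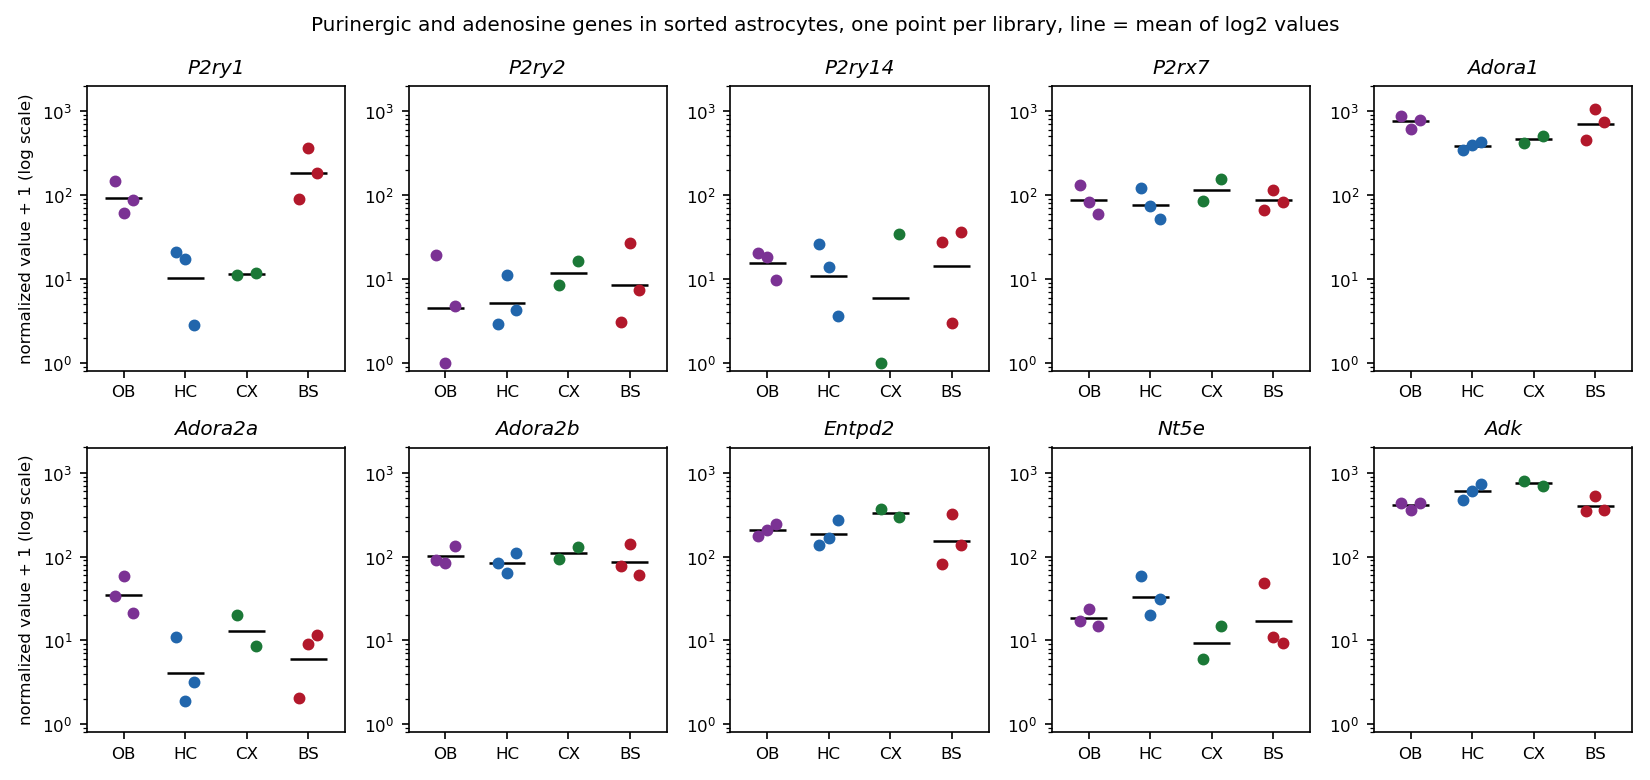
Normalized value + 1 (log scale) of the 10 genes in OB, HC, CX and BS, with a point for each library and a line at the mean of the log2 values of the region. The P2ry1 points of the OB and BS lie between 60 and 367 before the 1 is added and those of the HC and CX at 19.99 or lower, while the points of P2rx7 and Adora2b overlap across all regions.

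P2ry1, on chromosome 3 from 61002795 to 61008982 of GRCm38 on the plus strand, encodes the ADP receptor P2Y1. Its normalized values were 147, 60 and 85.6 in OB and 19.99, 16.4 and 1.83 in HC. They were 10.1 and 10.7 in CX and 88.3, 367 and 183 in BS. Every OB and BS library thus lay above every HC and CX library, and the OB and BS overlapped.

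The mean value of P2ry1 in BS was 213 ± 141 (SD, n = 3), 16.7-fold that of the HC at 12.8 ± 9.62 (SD, n = 3) and 20.5-fold that of the CX at 10.4 ± 0.48 (SD, n = 2). The OB mean was 97.4 ± 44.5 (SD, n = 3), which was 7.64-fold that of the HC and 9.37-fold that of the CX. The CX values rested on 15 reads in all and the HC values on 55, against 354 in BS and 370 in OB. Among the 4 regions the difference had an adjusted p of 0.00109 (limma), and it was called in each of the 11 fits that left out a library.

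By pairs of regions, the log2 difference of P2ry1 was 3.18 for OB minus HC (standard error 0.70, adjusted p = 0.0099 from limma) and 4.17 for BS minus HC (standard error 0.70, adjusted p = 0.00194). BS minus CX came to 4.0 (standard error 0.78, adjusted p = 0.00377), and the 2 contrasts with the BS held in all 11 fits without a library. The OB minus CX difference of 3.02 (standard error 0.78, adjusted p = 0.0369) was less firm, since 5 of the 11 such fits called it and the adjusted p rose to 0.225 without CX replicate 1. The neighbours in the order BS, OB, HC, CX that were not separated were BS and OB, with a log2 difference of 0.98 (95% interval -0.50 to 2.47), and HC and CX, at -0.17 for HC minus CX (95% interval -1.83 to 1.49). The summed value of 5 oligodendrocyte precursor markers was 1529 to 1734 in OB and 1319 to 2646 in BS against 955 to 1145 in HC and 903 to 1041 in CX. Olig1 led this sum and was the only marker of the list split as P2ry1 was. Pdgfra, Cspg4, Sox10 and Olig2 overlapped between these regions, with Pdgfra at 142 to 148 in HC and 102 to 158 in OB. The part of such cells in the P2ry1 values was not tested.

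Adora1 encodes the A1 receptor, which couples to Gi, and lies on chromosome 1 from 134199223 to 134235431 on the minus strand. Its normalized values were 885, 621 and 788 in OB and 342, 395 and 425 in HC. In CX they were 415 and 509, and in BS 458, 1069.8 and 735. All OB values were above all HC and CX values, all BS values were above all HC values, and BS replicate 1 lay between the CX libraries. Mybph, which shares exon sequence with Adora1 on the other strand, had values of 3.23 or lower.

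Adora1 thus had region means of 765 ± 133 (SD, n = 3) in OB, 754 ± 306 (SD, n = 3) in BS, 462 ± 66.8 (SD, n = 2) in CX and 387 ± 41.6 (SD, n = 3) in HC. The OB mean was 1.98-fold that of the HC. The adjusted p among the regions was 0.0316 (limma) and lay between 0.00063 and 0.0493 under the other settings, but 5 of the 11 fits without a library called the gene, with an adjusted p of 0.0823 without OB replicate 1. OB minus HC, at 0.97 on the log2 scale (standard error 0.25, adjusted p = 0.0280), was the pair called, also without 7 of the 11 libraries in turn, and its adjusted p was 0.126 without OB replicate 1. BS minus HC, at 0.88 (95% interval 0.34 to 1.42), had an adjusted p of 0.0636. For the neighbours OB and BS the interval of the log2 difference was -0.45 to 0.63, and for HC and CX it was -0.86 to 0.35.

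Adk lies on chromosome 14 from 21052574 to 21448569 on the plus strand. Its normalized values were 434, 362 and 440.1 in OB and 474, 612 and 735 in HC. They reached 807 and 696 in CX and were 346, 521 and 354 in BS. The CX libraries were above all OB and BS libraries, the OB and HC did not overlap, and BS replicate 2 lay within the range of the HC.

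Adk had region means of 751 ± 78.1 (SD, n = 2) in CX, 607 ± 131 (SD, n = 3) in HC, 412 ± 43.8 (SD, n = 3) in OB and 407 ± 98.9 (SD, n = 3) in BS. The gene was called among the regions with an adjusted p of 0.0246 (limma), in 7 of the 11 fits without a library, and with an adjusted p of 0.123 without CX replicate 1. CX minus OB was 0.87 on the log2 scale (95% interval 0.37 to 1.36, adjusted p = 0.0444) and CX minus BS 0.91 (95% interval 0.41 to 1.40, adjusted p = 0.0207). CX minus OB was called in 4 of the 11 fits without a library and 5 of 10 other settings, and CX minus BS in 7 of 11 and 9 of 10. Both were lost without CX replicate 1, with adjusted p-values of 0.357 and 0.203. The summed astrocyte markers, most of which was Slc1a2, reached lowest in BS and highest in CX. The means of Slc1a2, Slc1a3, Gja1 and Sox9 were lowest in BS and highest in CX as well. Aqp4 was highest in BS (mean 14007), Gfap lowest in CX (1099) and Aldh1l1 lowest in HC (764). When values were scaled to the 7 astrocyte markers, a setting chosen after the data were seen, the call of Adk among regions was lost (adjusted p = 0.093, limma). CX minus BS then came to -0.05 (adjusted p = 0.886). That scaling divides all genes of a library by the same number, so it also moved the median of all genes, by -0.94 for CX minus BS. Relative to that median, CX minus BS of Adk was 0.92 with it and 0.94 without it. This near-equality follows from the scaling itself, so it is no test of the Adk difference.

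**Figure D2:**
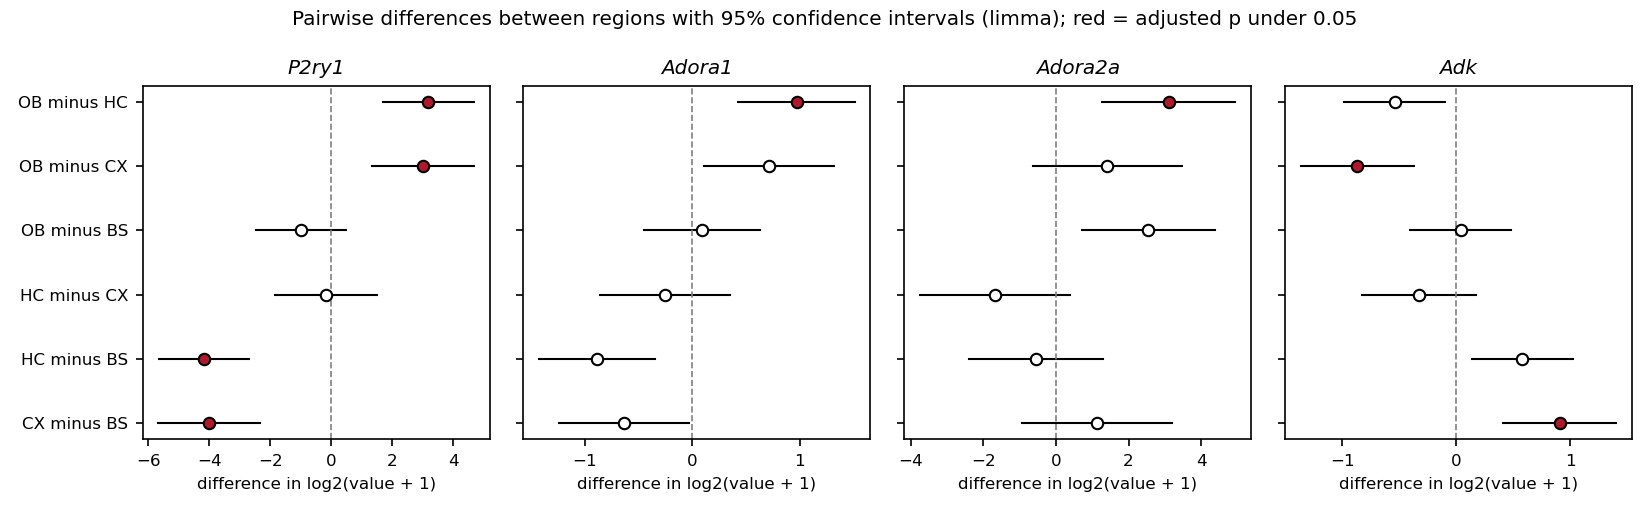
Differences in log2(value + 1) between each pair of regions for P2ry1, Adora1, Adora2a and Adk, with points at the estimate, bars for the 95% confidence interval and red points where the adjusted p of limma is under 0.05. P2ry1 shows the differences farthest from 0, up to 4.17 between the HC and BS, and the Adk estimates of CX minus BS and OB minus CX lie on opposite sides of 0.

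The A2 receptors for adenosine are coupled to Gs. Adora2a, the gene of the high-affinity receptor of this kind, on chromosome 10 from 75316877 to 75334784 on the plus strand, had normalized values of 32.6, 58.4 and 20.5 in OB. Values were 9.99, 0.91 and 2.20 in HC, 18.9 and 7.67 in CX, and 1.05, 8.01 and 10.5 in BS. All 3 OB libraries were above the 8 others, although OB replicate 3 and CX replicate 1 were close, at 20.5 and 18.9.

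The OB mean of Adora2a was 37.2 ± 19.4 (SD, n = 3), 8.50-fold that of the HC at 4.37 ± 4.91 (SD, n = 3), 2.80-fold that of the CX at 13.3 ± 7.91 (SD, n = 2) and 5.69-fold that of the BS at 6.53 ± 4.91 (SD, n = 3). These means rested on 142 reads in OB and on 23, 20 and 10 reads in HC, CX and BS. Among regions the gene did not pass the threshold, with an adjusted p of 0.0711 (limma). OB minus HC did, at 3.10 on the log2 scale (standard error 0.86, adjusted p = 0.0407), a call that held in 4 of 10 other settings and 5 of 11 fits without a library, with an adjusted p of 0.181 without OB replicate 2. Of the markers of striatal D2 neurons, which are known to express Adora2a, Gpr6 was at 0 in all OB libraries. Drd2 was 3.26, 1.58 and 5.93 in OB libraries 1 to 3, the reverse of the Adora2a order. Ppp1r1b, at 5.43, 16.6 and 11.3 there, had another order. Penk, the enkephalin precursor and also a D2 marker, was 58.6, 110.5 and 23.2 in OB libraries 1 to 3, the order that Adora2a had in them, and 0.734 to 9.37 in HC, 28.9 and 101 in CX and 22.1 to 52.1 in BS. The sum of all 4 D2 markers, which Ppp1r1b led outside OB, was 40.4 to 129 in OB, 276 to 354 in HC, 210 and 274 in CX and 325 to 633 in BS, while the neuroblast sum of 6 genes was 565 to 754 in OB and 443 or lower elsewhere. Their part in the level of Adora2a was not tested.

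Adora2b, the gene of the low-affinity A2B receptor, lies on chromosome 11 from 62248984 to 62266453 on the plus strand. It had normalized values of 90.1, 82.1 and 132 in OB and 81.8, 62.1 and 109 in HC. In CX it was at 91.7 and 130.3, and in BS at 75.7, 140.2 and 58.9. All regions overlapped. The widest log2 difference between regions, HC minus CX, was -0.41 (95% interval -1.26 to 0.45), and the adjusted p among regions was 0.837 (limma).

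Between receptors, levels were compared per kb of exon. Adora1 made up 58.2% to 80.4% of the summed value per kb of the adenosine receptor genes in the 11 libraries, Adora2b 17.4% to 40.7% and Adora2a 0.303% to 11.6%. Adora1 was 1.44- to 4.63-fold Adora2b per kb, and above it in every library. By region, the mean share of Adora1 was 68.3% in OB, 62.5% in HC, 58.8% in CX and 74.2% in BS, and the lowest BS share, 69.0%, lay below the highest HC share, 70.0%. The mean share of Adora2a was 6.71% in OB and between 1.19% and 3.42% in the other regions. Adora3, the fourth receptor of the family, had 12 reads in all libraries together.

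**Figure D3:**
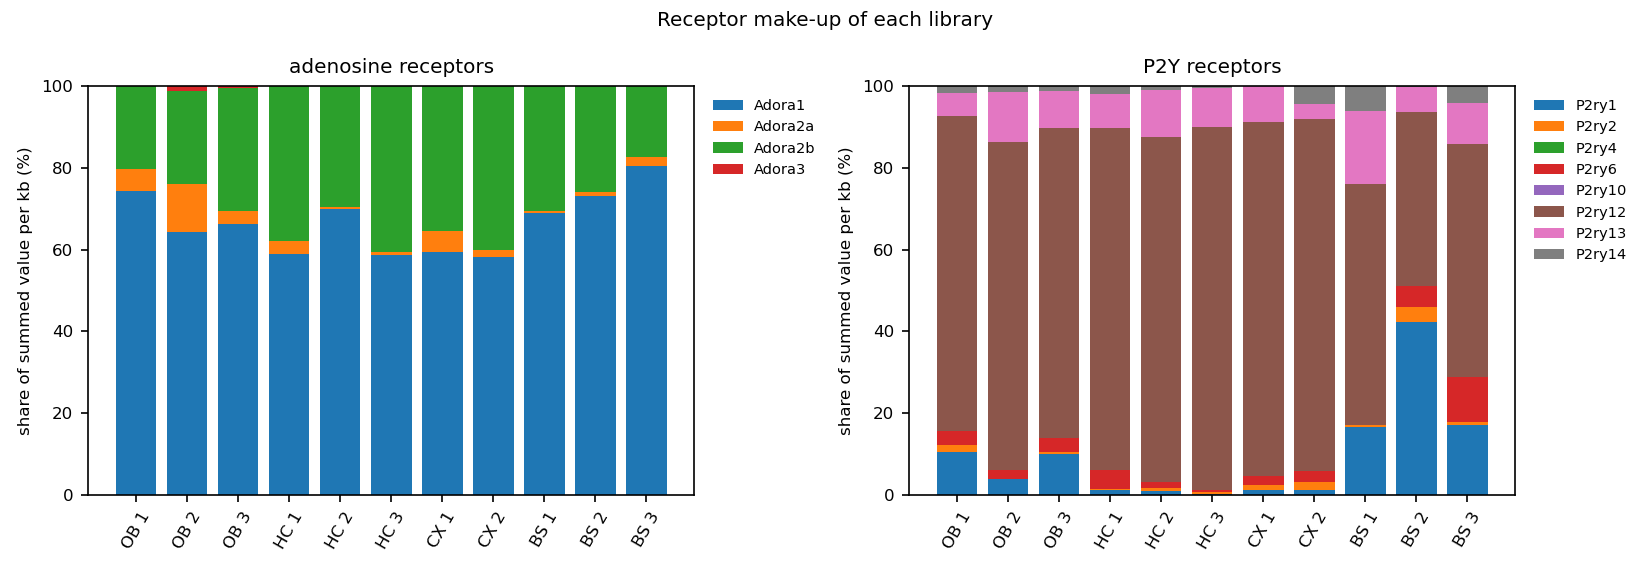
Stacked bars of the share (%) of each gene in the summed value per kb of the adenosine receptor genes and of the P2Y receptor genes, with a bar for each library. Adora1 holds 58.2% to 80.4% of the adenosine receptor bars, and the P2ry1 segment is 16.7%, 42.2% and 17.1% in BS libraries against 1.31% or lower in HC and CX libraries.

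The balance of A1 receptor and adenosine kinase transcripts combined Adora1, with its higher means in OB and BS, and Adk, with its higher means in HC and CX. Per kb, the ratio of Adora1 to Adk was 0.801, 0.675 and 0.703 in OB and 0.284, 0.253 and 0.227 in HC. It was 0.202 and 0.287 in CX and 0.521, 0.807 and 0.816 in BS. Every OB and BS library lay above every HC and CX library. A ratio within a library does not depend on its size factor, and as it was formed after both genes had been seen to differ, it has no test.

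P2ry2, on chromosome 7 from 100996568 to 101012866 on the minus strand, encodes the receptor for ATP and UTP. Its values were 18.5, 0 and 3.77 in OB and 1.87, 10.1 and 3.30 in HC. In CX they were 7.54 and 15.3, and in BS 2.10, 26.0 and 6.31. With 81 reads in all and between 0 and 17 in a library, its level was at or under the floor of 3 reads in 4 libraries, all regions overlapped and no difference was detectable at this depth (adjusted p = 0.787, limma).

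P2ry14, the UDP-glucose receptor gene on chromosome 3 from 59113855 to 59153618 on the minus strand, was sparse too, with 182 reads. It had values of 19.5, 17.4 and 8.62 in OB, 25.0, 12.8 and 2.57 in HC, 0 and 33.7 in CX and 26.3, 2.003 and 35.8 in BS. Libraries of the CX and of the BS differed more among themselves than the region means did, and the adjusted p was 0.858 (limma). P2ry14 lies in an intron of Med12l, which is on the opposite strand and had values of 149 to 356, and since no source used here gives a strand setting for the counting, reads of the 2 genes may not be separated where they overlap.

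P2rx7 encodes the ATP-gated channel P2X7 and lies on chromosome 5 from 122643911 to 122691432 on the plus strand. Its values were 133, 82.1 and 59.3 in OB and 122, 72.2 and 50.3 in HC. They were 82.9 and 156 in CX and 66.2, 114 and 82.1 in BS, so that all regions overlapped. The widest log2 difference, HC minus CX, was -0.57 (95% interval -1.53 to 0.39), with an adjusted p of 0.795 among regions (limma). Among P2X genes, P2rx7 took 21.7% to 53.1% and P2rx4 29.3% to 61.1% of the summed value per kb, and P2rx7 was above P2rx4 in 36.4% of libraries.

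Microglia are known to express P2rx7 and P2rx4 as well. The microglia and macrophage sum of 9 genes was 1173 to 3384 in OB, 1276 to 4155 in HC, 1631 to 2239 in CX and 1184 to 2397 in BS, and all 9 were above the floor in every region. Its part in the P2X values was not tested.

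Among P2Y genes, P2ry12, the ADP receptor that defines resting microglia, held 42.6% to 88.9% of the summed value per kb. P2ry1 held 16.7%, 42.2% and 17.1% in BS, 10.4%, 3.92% and 10.03% in OB, and 0.241% to 1.31% in HC and CX. P2ry12 and P2ry13, like P2ry14, lie within the span of Med12l on the opposite strand, so reads of Med12l may enter these shares.

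Entpd2 encodes NTPDase2, an ecto-enzyme that splits ATP mainly to ADP, and lies on chromosome 2 from 25395874 to 25401321 on the plus strand. Its values were 174, 208 and 247 in OB and 137, 165 and 269 in HC. They were 367 and 294 in CX and 79.9, 322 and 137 in BS. Both CX libraries were above all OB and HC libraries, but BS replicate 2 lay between them.

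The CX mean of Entpd2 was 331 ± 51.2 (SD, n = 2) and the BS mean 180 ± 127 (SD, n = 3), and CX minus BS was 1.10 on the log2 scale (95% interval 0.17 to 2.04, adjusted p = 0.129 from limma). Among regions the adjusted p was 0.319, and it was 0.0182 without BS replicate 2. That library also had the highest P2ry1, Adora1, Adora2b and Adk values of the BS and the highest astrocyte sum, 244807 against 78363 and 136866. Entpd2 shares exon sequence with Npdc1 on the same strand, which had values of 48.4 to 197.

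Nt5e, on chromosome 9 from 88327197 to 88372092 on the plus strand, encodes CD73, which makes adenosine from AMP at the cell surface. Its values were 16.3, 22.9 and 14.01 in OB and 58.1, 19.2 and 30.1 in HC. In CX they were 5.03 and 13.8, and in BS 47.3, 10.02 and 8.42. The high libraries were HC replicate 1 and BS replicate 1, and the adjusted p among regions was 0.394 (limma). The widest log2 difference, HC minus CX, was 1.82 (95% interval 0.15 to 3.49, adjusted p = 0.355).

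HC replicate 1 also had the highest endothelial sum, 2080.1, and the highest Acta2 value, 522, a smooth muscle gene, whereas BS replicate 1 had the highest fibroblast sum, 2803, with Dcn at 1667. The endothelial sum of BS replicate 1, 890.5, was the lowest of the BS. The choroid plexus sum was highest in BS replicate 1, at 234198, and next in HC replicate 1, at 140589. Against this, BS replicate 3 had a choroid plexus sum of 115515 but an Nt5e value of 8.42. OB libraries had choroid plexus sums of 46.9 or lower and Nt5e values of 14.01 to 22.9. Whether any of these cells bear on Nt5e was not tested. Per kb, Entpd2 exceeded Nt5e in every library, by 3.49- to 151-fold. Of the summed value per kb of the ecto-nucleotidase genes other than Enpp2, Entpd2 held 21.4% to 63.9%, Alpl, an alkaline phosphatase, 18.9% to 36.7%, Entpd1, the CD39 gene, 11.5% to 35.0% and Nt5e 0.424% to 6.14%.

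By pairs of regions, the calls were few. OB minus HC called 3 of the 10 genes (7.11% of all genes tested), P2ry1, Adora1 and Adora2a, all higher in OB, where 3.63% of all genes were called higher. OB minus CX called 2 (4.91%), P2ry1 higher and Adk lower in OB, and CX minus BS called 2 (10.9%), P2ry1 lower and Adk higher in CX. HC minus BS called P2ry1 alone (4.63%). OB minus BS called 0 of 10 by limma (15% of all genes), with 1 at an unadjusted p under 0.05, 0 by edgeR and 1 by DESeq2, and HC minus CX called 0 (1.23%), with 1 at an unadjusted p under 0.05 and 0 by edgeR and DESeq2.

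Each region was also set against the 8 or 9 other libraries pooled. The study's thresholds were a value over 5 in 2 replicates of a region, an unadjusted p under 0.01 and a fold change over 1.5. By these thresholds, limma called Adora2a in OB (8.04% of all genes) and P2ry1 in BS (9.03%). The study itself used DESeq2 and asked that a gene differ in its own region only, a condition not applied here. Adora2a had a log2 difference of 2.47 (standard error 0.76, adjusted p = 0.0898 from limma) and P2ry1 of 2.93 (standard error 0.96, adjusted p = 0.0931). The BS call of P2ry1 was lost in edgeR and DESeq2 and in 6 of the 11 fits without a library. For the HC (1.28%) and CX (2.77%) limma called 0 of 10, with 2 each at an unadjusted p under 0.05, edgeR called 0 of each, and DESeq2 called 2 and 1. At an adjusted p under 0.05, limma called 0 of 10 in each of the 4 comparisons (4.58% of all genes in OB, 0% in HC, 0.0144% in CX and 5.42% in BS), with 1, 2, 2 and 1 at an unadjusted p under 0.05 in OB, HC, CX and BS, the same numbers as edgeR gave.

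The genes whose levels over the 11 libraries were most like those of P2ry1, by Pearson's r of log2(value + 1), were Gpr179 (r = 0.964), Gpsm1 (r = 0.958) and St3gal1 (r = 0.953). Adora1 was most like Scd1 (r = 0.947), Kcnj10 (r = 0.939) and Heyl (r = 0.924). For Kcnj10, the inward rectifier potassium channel of astrocytes, the mean value was 31194 in OB, 25801 in BS, 15769 in CX and 10328 in HC. Adk was most like Acat3 (r = 0.979), Fut8 (r = 0.967) and Scg3 (r = 0.963). These correlations are descriptions over 11 libraries that share regions and scaling.

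A wider list of 65 genes of the same pathways held 51 that passed the filter, of which 17 (33.3%) differed among regions at an adjusted p under 0.05 (limma), against the 16.5% of all genes tested. The region with the highest mean was the BS for 10 of the 17, the OB for 4, the HC for 2 and the CX for 1. Of those highest in BS, Enpp2, Slc29a4, Slc28a3 and Hprt are set beside choroid plexus markers below. The median log2 range of the 51 genes was 1.12. As the list was chosen with earlier results of these data known, its share and range are descriptions only. The 16.5% of all genes tested also stands beside the counts by group that follow.

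Downstream of P2Y1, 2 of the 9 Gq and calcium genes tested were called, against 16.5% of all genes tested, and both were lowest in OB. Plcb1, a phospholipase C that Gq activates, had values of 495, 531 and 661 in OB, 1139 to 1807 in HC, 1593 and 1552 in CX and 1191 to 2849 in BS (adjusted p = 0.00113, limma). The IP3 receptor gene Itpr1 had 424, 386 and 340 in OB and 878 or more in every other library, with an OB mean of 383 ± 41.9 (SD, n = 3) and a BS mean of 1484 ± 611 (SD, n = 3) (adjusted p = 0.000693). No OB library overlapped another region for either gene. Itpr3 went the other way, at 164, 70.3 and 104 in OB and 61.2 or lower elsewhere, but was not called among regions (adjusted p = 0.146, limma). By the study's thresholds, limma called it in OB against the other regions, with a log2 difference of 2.51 (adjusted p = 0.0942, limma). Itpr2, the IP3 receptor gene best known in astrocytes, was not among those called.

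Among ATP release genes, 2 of 6 were called, both subunits of the volume-regulated anion channel. Lrrc8d had values of 289, 280 and 262 in OB and 72.9 to 180 elsewhere (adjusted p = 0.00339, limma). Lrrc8c was 446, 246 and 345 in OB, 161 to 295 in HC, 202 and 245 in CX and 87.3, 72.1 and 84.2 in BS (adjusted p = 0.000524). Thus all OB libraries were above all others for Lrrc8d, and all BS libraries were below all others for Lrrc8c.

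P2ry12 was the 1 of 3 other P2Y genes called (adjusted p = 0.0221, limma), with a mean of 254 ± 93.3 (SD, n = 3) in BS and 446 to 676 in the other regions. It is itself 1 of the 9 markers of microglia and macrophages, of which 6, P2ry12 included, had their lowest mean in BS. The other 3, C1qb, Ptprc and Mrc1, had their lowest mean in CX. Cx3cr1 and Tmem119, also microglial markers, had the same order of means as P2ry12, with 288 and 105 in HC, 235 and 66.5 in OB, 170 and 42.2 in CX and 149 and 36.5 in BS. The remaining markers had other orders: Aif1 and C1qa were highest in OB, and Ptprc (47.9) and Mrc1 (233) were second highest in BS. The part of microglial RNA was not tested. P2ry12 also lies within the span of Med12l on the opposite strand, so their reads may not be separated where they overlap. Neither P2X gene tested, P2rx4 or P2rx6, was called. Of the 5 transporters of nucleosides tested, 3 were called. Slc29a3, an intracellular equilibrative transporter, had 589, 1158 and 815 in BS and 280 to 574 elsewhere (adjusted p = 0.0267).

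The other transporters called, Slc29a4 and Slc28a3, were higher in every HC and BS library than in any OB or CX library. The choroid plexus markers were split in the same way. Slc29a4 had values of 3.16 to 9.77 in OB, 129 to 375 in HC, 9.20 and 21.4 in CX and 100.2 to 526 in BS (adjusted p = 2.7e-05, limma). Slc28a3, a concentrative transporter, was at 0 in all OB and CX libraries, 5.48 to 39.4 in HC and 16.0 to 74.6 in BS (adjusted p = 0.000907). Within the HC and within the BS, the library highest in Ttr was the highest and the one lowest in Ttr the lowest for both genes.

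Ecto-enzymes gave 2 calls of 6. Enpp2, the gene of autotaxin and a known choroid plexus gene, had values of 2298 to 2744 in OB, 33929 to 73682 in HC, 1619 and 3346 in CX and 24798 to 121680 in BS (adjusted p = 4.1e-06, limma). Ttr, the choroid plexus transthyretin gene, spanned 5.39 to 16.6 in OB, 65549 to 132046 in HC, 1323 and 4204 in CX and 46376 to 221911 in BS. Enpp1, which splits ATP to AMP, had a mean of 122 ± 5.72 (SD, n = 3) in BS and 36.4 ± 7.06 (SD, n = 2) in CX (adjusted p = 0.0303). Enpp2 was thus highest where choroid plexus markers were, and their part in its values was not tested.

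**Figure D4:**
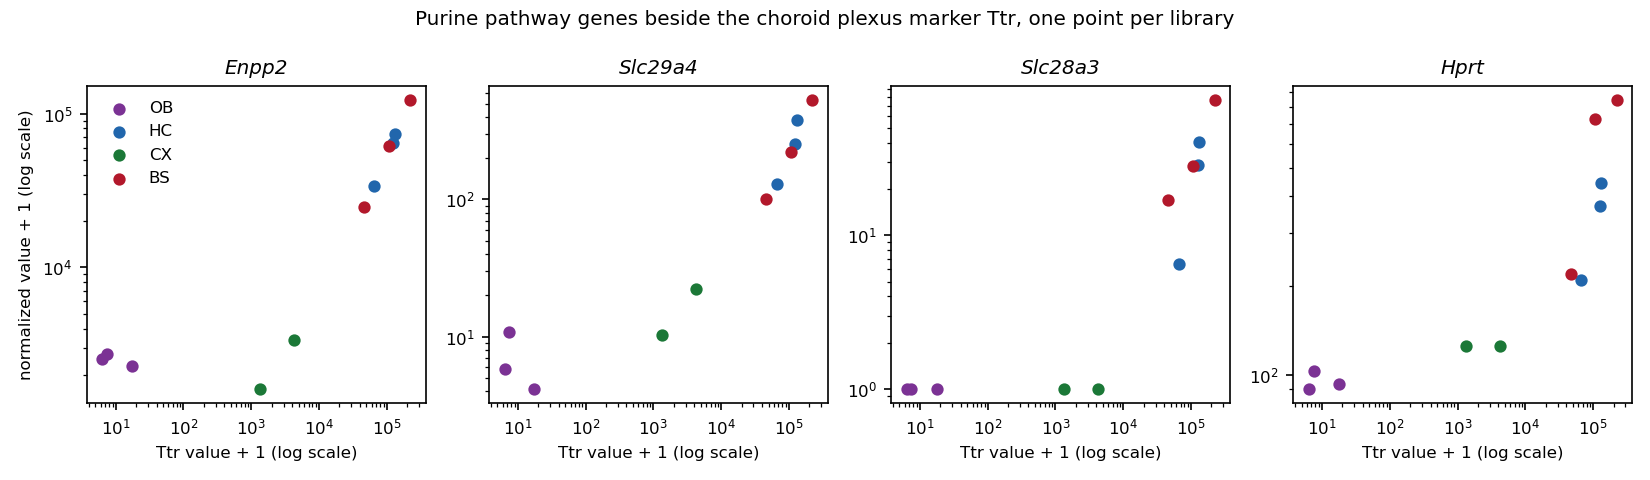
Normalized value + 1 of Enpp2, Slc29a4, Slc28a3 and Hprt against Ttr value + 1, both on log scales, with a point for each library colored by region. OB libraries sit at a Ttr value of 16.6 or lower and HC and BS libraries at 46376 or higher, and the HC and BS libraries are the high ones for all 4 genes.

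Enzymes of adenosine and AMP other than Adk gave 5 calls of 16. Hprt, the purine salvage enzyme, was 88.9 to 102 in OB and 124 in both CX libraries, against 208 to 441 in HC and 218 to 840 in BS (adjusted p = 0.00169, limma). Within the HC and within the BS it had the order of Ttr, and the part of choroid plexus markers in its values was not tested. Nt5c1a, a cytosolic AMP nucleotidase, was 7.60, 0 and 3.23 in OB and 44.1, 136 and 80.0 in BS (adjusted p = 0.00212). Ahcyl2, which resembles the enzyme that splits S-adenosylhomocysteine, had a mean of 4536 ± 1049 (SD, n = 3) in BS and 1564 ± 228 (SD, n = 2) in CX (adjusted p = 0.00212). All OB libraries were thus below all others for Hprt and Nt5c1a, and both CX libraries below all others for Ahcyl2.

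The AMP deaminase gene Ampd3 and the adenylate kinase gene Ak4 were lowest in BS. Ampd3 averaged 286 ± 38.8 (SD, n = 3) there and 568 ± 114 (SD, n = 2) in CX (adjusted p = 0.0245, limma), and Ak4 averaged 283 ± 83.0 (SD, n = 3) there and 666 ± 84.4 (SD, n = 3) in OB (adjusted p = 0.0151). Of the 4 intracellular diphosphatases, Entpd5 was lowest in BS at 452 ± 143 (SD, n = 3) and highest in OB at 871 ± 83.9 (SD, n = 3) (adjusted p = 0.0252). Entpd7 was highest in HC at 67.2 ± 20.4 (SD, n = 3) and lowest in CX at 9.90 ± 3.34 (SD, n = 2) (adjusted p = 0.0246).

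**Figure D5:**
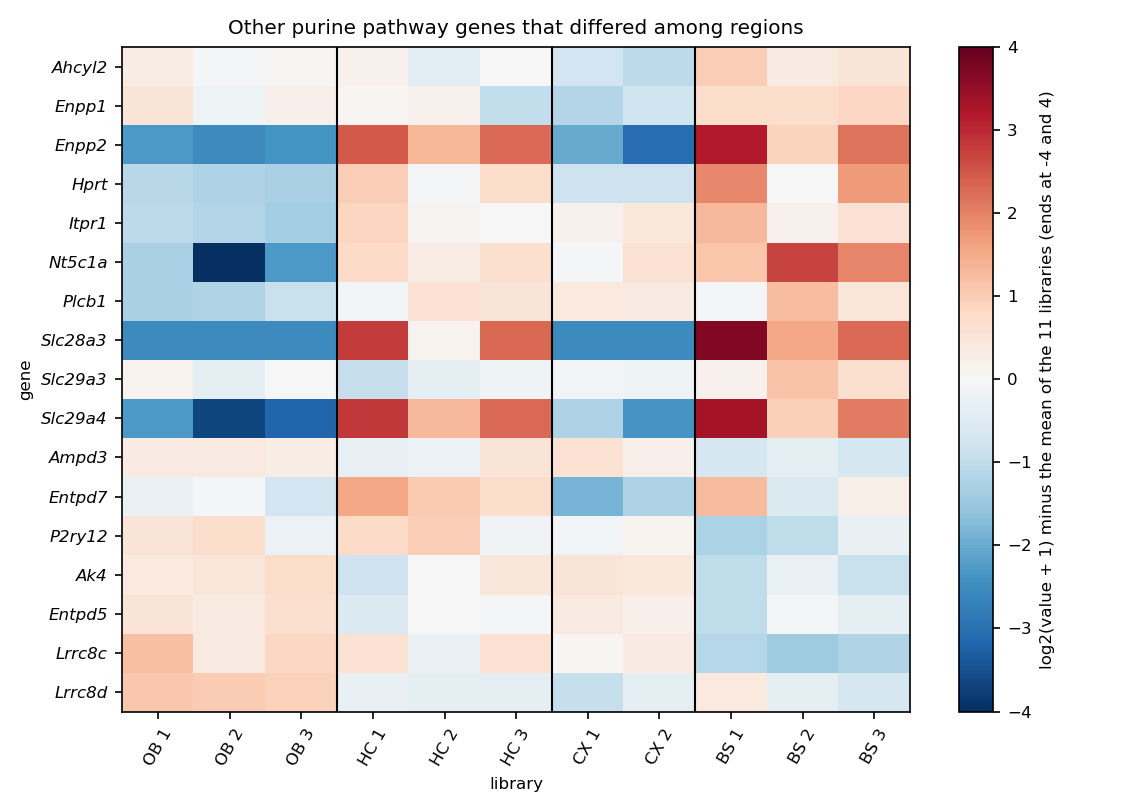
Heat map of the 17 genes of the wider list that differed among regions, with libraries in columns and log2(value + 1) minus the mean of the 11 libraries in color. The OB columns are the lowest for Itpr1, Plcb1, Nt5c1a and Hprt and the highest for Lrrc8d, and the BS columns are the lowest for Lrrc8c.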

How the data were processed

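RNA from FACS-sorted cells was amplified, depleted of ribosomal RNA and sequenced, and the authors mapped reads with STAR 2.5.0a to the mouse genome, counted them on UCSC transcripts and normalized them with DESeq2 1.20.0. The deposited unit is a normalized signal, the count divided by 1 size factor per library. In each library 100% of the values above 0 were whole multiples of 1 step (tolerance 0.01 reads), so reads were recovered and used for the filter (edgeR filterByExpr) and the count-based alternatives.

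Samples were grouped by the region in their labels. limma 3.58.1 in R 4.3.3 was fitted with a mean-variance trend to log2(value + 1) of 13875 genes, two-sided, with a mean for each region, or with 1 region against the others pooled. Fold changes on this scale understate those of low genes. Adjusted p-values follow Benjamini and Hochberg. Alternatives were edgeR 4.0.16, DESeq2 1.42.0, a pseudocount of 0.25, other filters, scalings and thresholds, a replicate block, a mean for each region and leaving out each library. The steps were tested on simulated data. No replicate libraries agreed within sampling noise, so none was taken as deposited more than once, which does not show that they came from separate animals.

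All 10 genes are named, with each gene of the wider list whose F test had an adjusted p under 0.05, the 3 most similar genes of each called member, and overlapping genes. Members and lists were chosen with earlier results of these data known. Positions and exon lengths are from GENCODE M21 (GRCm38) and promoters from RefSeq. Tables and plots were made in Python 3.11.15 (pandas 2.3.3, matplotlib 3.10.9).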

Additional observations from a re-analysis of the deposited data

How the results depend on the processing

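The calls of P2ry1 among regions and of its contrasts of the HC and CX with the BS held in every setting and every fit without a library. Other single calls moved. Of the member results under settings other than leaving out a library, 992 kept their side of the threshold, 21 lost the call, 15 gained it and 2 with a call in 1 of the settings reversed. With a library left out, the numbers were 1148, 47, 15 and 0. Among those that kept their side, 58 of the 992 (22 of them under scaling to the astrocyte markers) and 77 of the 1148, uncalled both ways, changed sign. The causes were not tested except where fewer samples or genes are the setting itself.

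Both reversals of a called difference concerned Adk under scaling to the astrocyte markers, chosen after the data were seen: OB minus BS was -0.72 (adjusted p = 0.0393, limma; 0.04 as reported) and CX minus BS -0.0507 (adjusted p = 0.886). That scaling moved the median of all genes by -0.94 in log2 for CX minus BS and by -0.75 and -0.70 for OB minus BS and HC minus BS. Members called in the BS against the other regions were 1, but 0 with edgeR (both factor methods), DESeq2, a pseudocount of 0.25 and an adjusted p, and 2 under astrocyte scaling. The count of 1 in the OB became 0 under astrocyte scaling and an adjusted p and 2 under region means, a contrast with the average of the other 3 region means. In the HC the count of 0 became 2 under DESeq2 and under region means, and in the CX it became 1 and 2 under these settings. Calls over members and pairs of regions fell from 8 to 5 with no filter.

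Without a library, members called among regions ranged from 1 (without CX replicate 1 or BS replicate 3) to 4, calls over pairs from 3 (without OB replicate 1) to 11, and called genes of the wider list from 12 to 20. The counts against the other regions ranged from 0 to 2 in the OB and HC and from 0 to 1 in the CX and BS. In fits that leave the CX with 1 sample, that sample is assumed to vary like the others.

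Replicate numbers are shared only as numbers: deviations of same-numbered libraries correlated between -0.16 and 0.25, over 0.1 in 3 of 15 pairs. With the replicate number as a block, the members called in the OB and in the BS against the other regions were 0 each, while the genes called among regions went from 2285 to 2327. Depth limits P2ry2, P2ry14 and, outside the OB, Adora2a, which had few reads per library.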
